A study of Mus musculus with 12 samples.

Results

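Transcripts for the uptake and β-oxidation of fatty acids were followed in the mouse left ventricle through 32 genes, which were picked by symbol from the pathway, out of 29564 genes in the table. All 32 were found, and all 32 were among the 14333 genes that passed the filter on low counts. Bulk RNA-seq was made from the left ventricle of WT C57BL6 mice in 3 groups, with 4 animals and 1 library per animal in each. Control + Veh animals (libraries C1 to C4) were non-failing and received vehicle. HFpEF + Veh animals (V1 to V4) modelled heart failure with preserved ejection fraction (HFpEF) by HFD/L-NAME, in which a high-fat diet is combined with L-NAME, an inhibitor of nitric oxide synthases, and also received vehicle. HFpEF + TYA-018 animals (T1 to T4) carried the same model and received the HDAC6 inhibitor TYA-018 by mouth at 15 mg/kg. No group received TYA-018 without the model, and the labels give neither age nor sex. A single dose is given in the title of the series, and the study describes hearts collected hours after one dose at this level, whereas the treatment protocol attached to the samples describes daily dosing over weeks.

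The adult heart draws most of its energy from long-chain fatty acids. These are freed from circulating triglyceride by lipoprotein lipase, enter the cell with help from membrane and cytosolic carriers, are joined to coenzyme A, and cross the inner mitochondrial membrane as carnitine esters, a step that malonyl-CoA restrains. Inside the mitochondrion each turn of the β-oxidation cycle removes an acetyl-CoA through dehydrogenation, hydration, a second dehydrogenation and thiolysis, auxiliary enzymes rearrange the double bonds of unsaturated chains, and electrons pass through the electron transfer flavoprotein to the respiratory chain, while peroxisomes shorten very long and dicarboxylic chains by a parallel route.

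The 32 genes were ordered by these roles. Uptake was represented by Cd36, Lpl, Fabp3 and Slc27a1, activation by Acsl1 and Acss1, the carnitine shuttle by Slc22a5, Cpt1a, Cpt1b, Cpt2 and Crat, and control by malonyl-CoA by Mlycd and Acacb. The mitochondrial oxidation steps held 17 genes. They were the acyl-CoA dehydrogenases Acadvl, Acadl, Acadm, Acads and Acad9, the enzymes from hydration to thiolysis Hadha, Hadhb, Echs1, Hadh and Acaa2, the enzymes of unsaturated chains Eci1, Eci2, Decr1 and Ech1, and the electron carriers Etfa, Etfb and Etfdh. Ehhadh and Acaa1a stood for the peroxisome, and the 15 genes outside the mitochondrial oxidation steps are called the other steps below.

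Library totals lay between 61177646 and 83928922 estimated counts. Values are CPM, counts scaled to a common library size after trimmed-mean (TMM) scaling, and a gene is called when the adjusted p of edgeR's two-sided quasi-likelihood test, fitted to all 12 libraries and adjusted over the 14333 genes, is under 0.05. The ventricular identity of the tissue was checked with marker lists. All 8 cardiomyocyte markers were tested, and their summed level was 27490 to 38574 CPM over the Control + Veh libraries, 25485 to 27075 CPM in HFpEF + Veh and 29092 to 32001 CPM in HFpEF + TYA-018. Of the 8, 6 fell and 1 rose in HFpEF + Veh against Control + Veh, and 3 rose in HFpEF + TYA-018 against HFpEF + Veh. By contrast, 4 of 6 fibroblast, 3 of 6 endothelial, 3 of 4 tested macrophage and 5 of 5 red cell markers were called higher in HFpEF + Veh, and 5, 3, 2 and 5 genes of these whole lists were called lower in HFpEF + TYA-018 against HFpEF + Veh. Dcn and Cd163 were among those called lower without having been called higher in HFpEF + Veh. The red cell sum ranged from 1553 to 2309 CPM over Control + Veh, 4785 to 14138 CPM in HFpEF + Veh and up to 3572 CPM in HFpEF + TYA-018. Each of these sums separated the HFpEF + Veh libraries from both other groups (exact permutation p = 0.0286, the smallest that 4 against 4 allows, adjusted p = 0.0605 over 36 tests). Hepatocyte markers went in the direction of the cardiomyocyte ones. Of these 5 genes 4 were called lower in HFpEF + Veh and 0 between the HFpEF groups, with medians of -2.46 and 1.63, and their sum was 26.5 to 77.7 CPM over Control + Veh, 2.51 to 13.5 CPM over HFpEF + Veh and 3.23 to 68.9 CPM over HFpEF + TYA-018. Liver expresses many of the 32 genes. Adipocyte markers were near 0 (2 of 6 tested and 0 called, medians -1.52 and 1.56, summed level at most 0.922 CPM in any library). Of the atrial list Nppa alone was called, lower in HFpEF + Veh. Nppa averaged 191 CPM in Control + Veh, whereas Myl7 averaged 0.186 CPM and Myl4 2.34 CPM there. Sln had an estimated count of at most 5 in any library and was not tested. Whether the fall of Nppa reflects atrial tissue was not tested. In bulk tissue fewer cells of a type and less RNA per cell cannot be told apart, and the part of the cardiomyocyte, hepatocyte and red cell differences in the gene values was not tested.

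Compared per transcript length in TPM, which are scaled for transcript length and depth, the members spanned more than 3 orders of magnitude in Control + Veh. The most abundant were Ech1, at 1143 ± 201 TPM (SD, n = 4), and the heart fatty acid-binding protein Fabp3, at 1093 ± 183 TPM, and the libraries of these 2 genes overlapped. Lpl (439 ± 34.6 TPM) and Etfb (415 ± 46.8 TPM) followed, overlapping each other but neither the pair above nor the genes below. Acadvl, Acadl, Hadha, Acaa2, Hadhb and Etfa then formed a run from 216 to 156 TPM in which each gene overlapped the next. The muscle form of carnitine palmitoyltransferase I, Cpt1b, stood at 62.1 ± 5.27 TPM, whereas the liver form Cpt1a stood at 1.66 ± 0.151 TPM. At the low end lay the fatty acid transport protein Slc27a1 (0.969 ± 0.253 TPM), Acad9 (0.697 ± 0.102 TPM) and the peroxisomal bifunctional enzyme Ehhadh (0.510 ± 0.0481 TPM). Slc27a1 overlapped Acad9, which did not overlap Ehhadh. In HFpEF + TYA-018 the TPM of the abundant genes spread widely, with Fabp3 at 2039 ± 861 TPM.

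**Figure D1:**
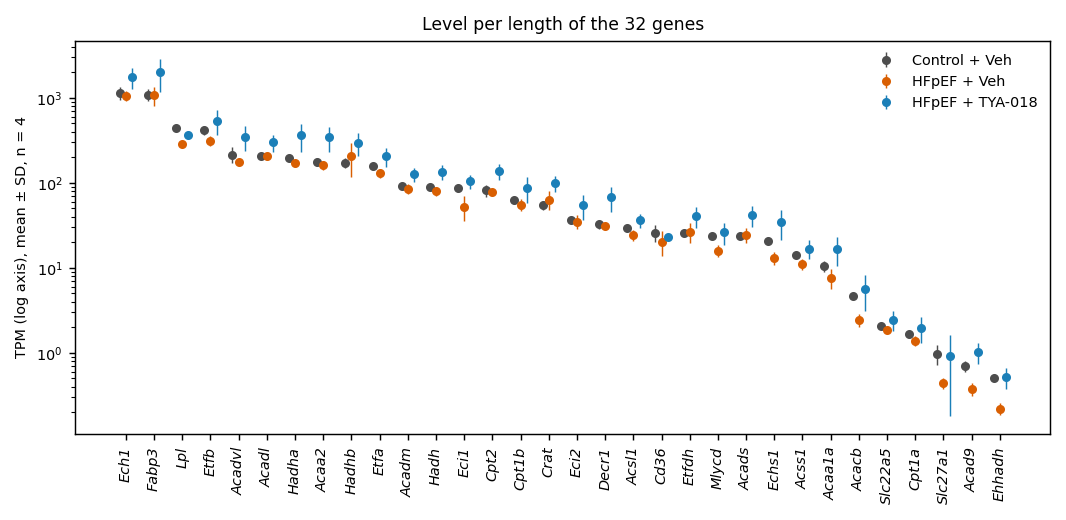
Mean TPM (log axis) of the 32 genes in the 3 groups, with the SD of 4 libraries as bars, ordered by the level in Control + Veh. In Control + Veh Ech1 and Fabp3 have the highest means, and Slc27a1, Acad9 and Ehhadh have means under 1 TPM.

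Between HFpEF + Veh and Control + Veh, which asks what the diet and L-NAME changed, 8 of the 32 genes fell and 0 rose. The 8 became 5 without C2, and 2 (Lpl and Ehhadh) with limma on log2(TPM + 1) or log2(TPM + 0.1). The genes were Lpl, Slc22a5, Mlycd, Acacb, Acad9, Echs1, Ehhadh and Acaa1a, with log2 fold changes from -0.72 to -0.26. Over all genes tested 21.2% were called, 10.3% lower and 10.9% higher (on log2(TPM + 1) with limma, 121 genes passed as lower and 51 as higher). Without C2, 980 of 14532 genes were called lower, beside 1472 of 14333 with all libraries. The median over the 32 genes was -0.0029, beside -0.0112 over all genes, and 16 genes lay on each side of 0. Relative to the median of all genes, 12 lay above and 20 below without C1, and 8 above and 24 below on log2(TPM + 1). On protein-coding TPM and with effective lengths as offset this split was 16 and 16. Of the 8, 6 were among the 15 genes of the other steps and 2 among the 17 of the mitochondrial oxidation steps. All 4 HFpEF + Veh libraries lay under all 4 Control + Veh libraries in 9 genes, and above them in 1 (Decr1), where the shares over all genes were 11.5% and 12%.

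Between HFpEF + TYA-018 and HFpEF + Veh, which asks what the compound changed in the model, 20 of the 32 genes rose and 0 fell. Over all genes tested 19.3% were called, 8.93% higher and 10.4% lower. That split depends on the scaling, since on log2(TPM + 1) with limma 2228 passed as higher but 68 as lower. The median over all genes was 0.167 on that scale, and that of the members lay 0.478 above it. The members' log2 fold changes had a median of 0.35 (0.002 over all genes), and 30 of the 32 lay above 0, Cd36 and Cpt1a being the exceptions. The mitochondrial oxidation steps held 14 of the 20, out of 17 genes that all lay above 0, and the other steps held 6 of 15. The 4 HFpEF + TYA-018 libraries lay above all 4 HFpEF + Veh libraries in 23 genes, and under them in 0, where the shares over all genes were 12% and 13.1%.

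Set against Control + Veh, HFpEF + TYA-018 had 17 of the 32 genes higher and 1, Lpl, lower, where 3.12% and 2.74% of all genes were called, 5.86% in all. All 4 HFpEF + TYA-018 libraries lay above the 4 of Control + Veh in 17 genes and under them in 2, where the shares over all genes were 7.76% and 7.05%. The median was 0.28, beside -0.0176 over all genes. Here the mitochondrial oxidation steps held 14 of the 17 higher genes, and the other 3 were Fabp3, Cpt2 and Crat. In 16 of the 32 genes (50%), all 4 HFpEF + TYA-018 libraries lay above all 8 others, a pattern seen in 2.85% of all genes. It was found in 13 of 17 genes of the mitochondrial oxidation steps and in 3 of 15 of the other steps. The converse, all 4 HFpEF + Veh libraries under all 8 others, was found in 4 of the 32 (12.5%) and in 4.24% of all genes. The same libraries enter more than 1 of these comparisons, so the comparisons are given side by side for each gene and not as repeats of one another.

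The result against Control + Veh was the least firm of the 3. The count of higher genes was 8 without T1 or without T2, 9 without C4, and 11 without C2 or T4, and limma on log2(TPM + 1) called 0 of the 32, although 21 had an unadjusted p under 0.05 there, as with edgeR. Over all genes 3219 of 14333 had an unadjusted p under 0.05 with edgeR, and they were not counted with limma. Calls over all genes fell too, from 840 with all libraries to 403, 308 and 325 without T1, T2 and C4. They were 543 and 529 without C2 and T4, and 9 of 14333 on log2(TPM + 1). Against HFpEF + Veh the count of higher genes was 14 to 23 when any 1 library was left out and 24 on log2(TPM + 1), where higher calls outnumber lower ones over all genes, but 11 on TPM rescaled to protein-coding genes, a scale close to that of the study, and 9 with effective lengths as offset. Over all genes, 353 of 13344 were called higher on protein-coding TPM and 567 of 14333 with the length offset, beside 1280 in the main fit. The length offset ended 12 of the 20 calls and protein-coding TPM 10 of them. The 8 calls kept under all 21 alternatives were those of Acacb, Acad9, Hadha, Echs1, Hadh, Acaa2, Decr1 and Acaa1a. In HFpEF + Veh against Control + Veh the falls of Lpl and Ehhadh were kept under all 21, and against Control + Veh after TYA-018 0 of 18 calls were. Other genes passed only under an alternative. With DESeq2 the falls of Slc27a1, Etfb and Acss1 and the rise of Decr1 in HFpEF + Veh passed, and so did the rises of Slc22a5, Eci1 and Etfdh between the HFpEF groups. On log2(TPM + 1) the rises of Lpl, Fabp3, Acsl1, Acss1, Acadl, Eci1 and Ehhadh between the HFpEF groups passed. Statements below on fits with a library left out refer to edgeR alone.

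**Figure D2:**
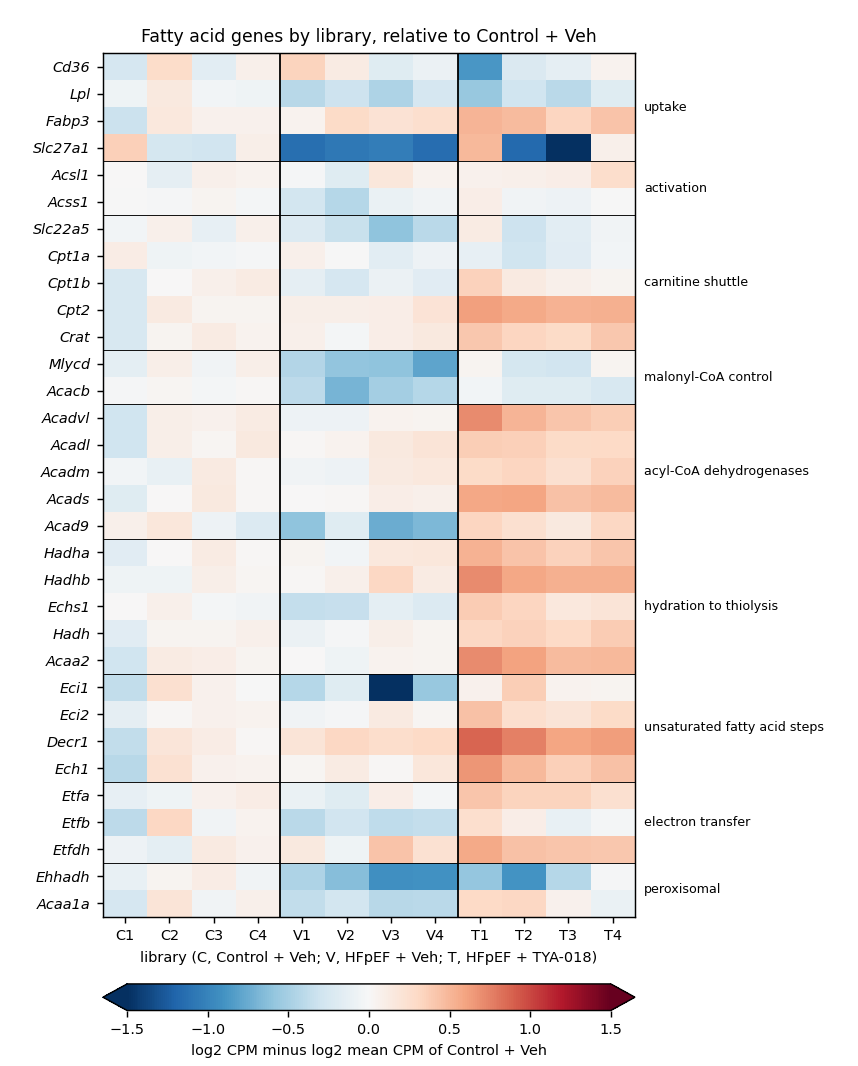
Each cell is the log2 CPM of a gene in a library minus the log2 of its mean CPM in Control + Veh, with genes grouped by role and colours capped at 1.5. Blue cells in V1 to V4 are seen in Lpl, Slc27a1, Slc22a5, Mlycd, Acacb, Acad9, Eci1, Etfb, Ehhadh and Acaa1a, and red cells in T1 to T4 run through most genes from the dehydrogenases to electron transfer.

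The first steps, uptake and activation, held the only member that was called lower than Control + Veh in both HFpEF groups. Lpl encodes lipoprotein lipase, which frees fatty acids from triglyceride at the vessel wall. Lpl measured 3988, 4624, 4048 and 3996 CPM in Control + Veh, 3123, 3349.8, 3015 and 3484 in HFpEF + Veh and 2812, 3396, 3136 and 3676 in HFpEF + TYA-018. All 8 libraries of the HFpEF groups lay under all 4 Control + Veh libraries, and the 2 HFpEF groups overlapped. Its log2 fold change was -0.36 (SE 0.089, adjusted p = 0.0146) in HFpEF + Veh against Control + Veh and -0.36 (SE 0.089, adjusted p = 0.0393) in HFpEF + TYA-018 against Control + Veh, while between the HFpEF groups it was 0.0055 (95% interval -0.19 to 0.20, adjusted p = 0.972). Leaving out C2, the highest Control + Veh library, gave -0.31 (adjusted p = 0.0398) in the first of these, and the call against Control + Veh after TYA-018 was lost without any 1 of C2, C3, C4, T1, T2 and T3 (adjusted p 0.067 to 0.0944).

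Fabp3, which carries fatty acids through the cytosol, went the other way. Fabp3 measured 2130.4, 2968, 2785 and 2779.7 CPM in Control + Veh, 2769, 3243, 3093 and 3180.4 in HFpEF + Veh and 3810.2, 3693, 3325 and 3596 in HFpEF + TYA-018. Every HFpEF + TYA-018 library lay above every other library, and C1 was the lowest of all. Fabp3 rose against Control + Veh by a log2 fold change of 0.44 (SE 0.098, adjusted p = 0.0266), a call that was lost without C4, T1 or T2 (adjusted p 0.0591 to 0.0716). Its steps from Control + Veh to HFpEF + Veh, 0.20 (SE 0.098, adjusted p = 0.157), and from there to HFpEF + TYA-018, 0.23 (SE 0.098, adjusted p = 0.119), did not pass the threshold on their own. About 37.3% of the 31-base words in Fabp3 transcripts also occur in other genes, mainly a pseudogene, so its counts could be split.

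Cd36, the fatty acid translocase of the cell surface, was not called in any comparison. Its libraries ranged over 262 to 378 CPM in Control + Veh, 275 to 391 in HFpEF + Veh and 170.4 to 322 in HFpEF + TYA-018, with T1 the lowest of the 12, and the log2 fold change between the HFpEF groups was -0.32 (95% interval -0.72 to 0.079, adjusted p = 0.247). Slc27a1, a transport protein with acyl-CoA synthetase activity, measured 6.96, 4.54, 4.46 and 5.79 CPM in Control + Veh, 2.49, 2.60, 2.66 and 2.46 in HFpEF + Veh and 7.59, 2.42, 1.54 and 5.75 in HFpEF + TYA-018. All 4 HFpEF + Veh libraries lay under Control + Veh, whereas in HFpEF + TYA-018 T1 lay above the Control + Veh range, T4 within it and T2 and T3 under it. The change in HFpEF + Veh was -1.09 (95% interval -1.94 to -0.25, adjusted p = 0.0642) and between the HFpEF groups 0.76 (95% interval -0.079 to 1.61, adjusted p = 0.191), and neither passed. The first passed with DESeq2 (adjusted p = 0.0146) and with only the 2 groups compared (0.00337). Acsl1, the main long-chain acyl-CoA synthetase of the heart, lay within 296 to 342, 286 to 367 and 341 to 392 CPM in the 3 groups, with 0.011 (95% interval -0.17 to 0.19, adjusted p = 0.943) in HFpEF + Veh against Control + Veh and 0.12 (95% interval -0.061 to 0.30, adjusted p = 0.341) between the HFpEF groups. Acss1, the mitochondrial acetyl-CoA synthetase, had -0.21 (SE 0.078, adjusted p = 0.0747) and 0.20 (SE 0.078, adjusted p = 0.0902) in the same comparisons, and its HFpEF + Veh libraries all lay under those of Control + Veh.

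In the carnitine shuttle, Cpt2, Crat and Cpt1b rose between the HFpEF groups, and Slc22a5 fell in HFpEF + Veh. Slc22a5 encodes the carnitine transporter OCTN2 of the plasma membrane. Slc22a5 measured 18.1, 19.6, 17.1 and 19.6 CPM in Control + Veh, 16.1, 14.7, 12.2 and 14.04 in HFpEF + Veh and 20.2, 15.02, 16.6 and 17.98 in HFpEF + TYA-018. It fell in HFpEF + Veh by a log2 fold change of -0.38 (SE 0.10, adjusted p = 0.0209) with no overlap between the groups, and was 0.29 (SE 0.10, adjusted p = 0.0648) between the HFpEF groups. That fall was lost without C2, C4, V3 or V4 (adjusted p 0.0519 to 0.0602) and changed sign, to 0.087 on protein-coding TPM and 0.042 with effective lengths as offset. Some 37.8% of its 31-base words are shared, mainly with its paralogue Slc22a21.

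Cpt2, the inner-membrane carnitine palmitoyltransferase that rebuilds acyl-CoA in the matrix, rose against both other groups. Cpt2 measured 133, 172, 162 and 161 CPM in Control + Veh, 167, 167, 168 and 181 in HFpEF + Veh and 241, 234, 225 and 227 in HFpEF + TYA-018. The HFpEF + TYA-018 libraries stood clear above the other 8, which overlapped among themselves. Its log2 fold change was 0.44 (SE 0.075, adjusted p = 0.00311) against HFpEF + Veh, a rise of 35.5%, and 0.56 (SE 0.075, adjusted p = 0.00270) against Control + Veh. Crat, carnitine acetyltransferase, which buffers acetyl-CoA as acetylcarnitine, measured 296, 359, 379.9 and 363 CPM in Control + Veh, 369, 343, 376 and 385 in HFpEF + Veh and 462, 436, 425 and 463 in HFpEF + TYA-018. Again all 4 HFpEF + TYA-018 libraries lay above the other 8, with 0.28 (SE 0.078, adjusted p = 0.0280) and 0.35 (SE 0.078, adjusted p = 0.0237). The first of these was lost without any 1 of V1, V2, V3, T1, T2 and T4 (adjusted p 0.0526 to 0.0753) and the second without C4, T1, T2 or T4 (0.0521 to 0.0596). Against HFpEF + Veh, neither Cpt2 nor Crat was called on protein-coding TPM (limma adjusted p = 0.0539 and 0.55). With the length offset these rises also missed the threshold (edgeR adjusted p = 0.126 and 0.499).

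The outer-membrane enzyme carnitine palmitoyltransferase I controls entry. Its muscle form Cpt1b measured 393, 465, 490.4 and 505 CPM in Control + Veh, 423, 389, 434 and 412 in HFpEF + Veh and 589, 509, 488 and 475 in HFpEF + TYA-018. Between the HFpEF groups it rose without overlap, by 0.31 (SE 0.090, adjusted p = 0.0302), while the HFpEF + TYA-018 and Control + Veh libraries overlapped (0.15 (SE 0.090, adjusted p = 0.346)). This call was lost without V1, V2, V4, T1 or T2 (adjusted p 0.0552 to 0.091), and 79.7% of the 31-base words of Cpt1b also occur in the overlapping gene Gm44502. The rise of Cpt1b shrank to 0.15 (limma adjusted p = 0.471) on protein-coding TPM and 0.16 (edgeR adjusted p = 0.354) with the length offset. The liver form Cpt1a ranged over 32.8 to 37.3 CPM in Control + Veh, 30.7 to 36.5 in HFpEF + Veh and 27.9 to 33.5 in HFpEF + TYA-018. Its log2 fold changes were -0.037 (95% interval -0.19 to 0.12, adjusted p = 0.750) in HFpEF + Veh and -0.12 (95% interval -0.27 to 0.036, adjusted p = 0.269) between the HFpEF groups. The mitochondrial carnitine-acylcarnitine carrier Slc25a20, which is not among the 32 but completes the shuttle, had 0.18 (SE 0.070, adjusted p = 0.0802), 0.29 (SE 0.070, adjusted p = 0.0155) and, against Control + Veh, 0.47 (SE 0.070, adjusted p = 0.00439), and was named after its values were seen.

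The 2 members that act on malonyl-CoA, the brake on carnitine palmitoyltransferase I, fell in HFpEF + Veh and rose in HFpEF + TYA-018 together. Acacb encodes acetyl-CoA carboxylase 2, which makes malonyl-CoA at the mitochondrion, and Mlycd encodes malonyl-CoA decarboxylase, which removes it. Mlycd measured 80.2, 94.1, 85.7 and 94.2 CPM in Control + Veh, 65.5, 58.5, 58.05 and 51.2 in HFpEF + Veh and 90.99, 74.02, 72.5 and 91.5 in HFpEF + TYA-018. Acacb measured 205, 211, 203 and 211 CPM in Control + Veh, 158, 128, 145 and 155 in HFpEF + Veh and 202, 183, 183 and 176 in HFpEF + TYA-018. In both genes the HFpEF + Veh libraries lay under all 8 others. The log2 fold changes in HFpEF + Veh against Control + Veh were -0.60 (SE 0.099, adjusted p = 0.00202) for Mlycd and -0.50 (SE 0.072, adjusted p = 0.00106) for Acacb, falls of 34.1% and 29.4%. Between the HFpEF groups they were 0.50 (SE 0.099, adjusted p = 0.00636) and 0.35 (SE 0.072, adjusted p = 0.00724). Beside Control + Veh, the HFpEF + TYA-018 group was at -0.11 (95% interval -0.32 to 0.11, adjusted p = 0.578) for Mlycd and -0.16 (95% interval -0.31 to -0.0006, adjusted p = 0.221) for Acacb. The 4 Acacb libraries of HFpEF + TYA-018 still lay under the 4 of Control + Veh, without passing the adjusted threshold, whereas those of Mlycd overlapped with them. These 4 calls held in all 12 fits that left out 1 library. On log2(TPM + 1) the falls were not called (adjusted p = 0.106 for Mlycd and 0.107 for Acacb, limma), nor on log2(TPM + 0.1) (0.0863 and 0.0776). On protein-coding TPM Mlycd was at -0.33 (adjusted p = 0.0626) and 0.24 (adjusted p = 0.172), and its rise also missed the threshold with the length offset (0.27, adjusted p = 0.134).

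**Figure D3:**
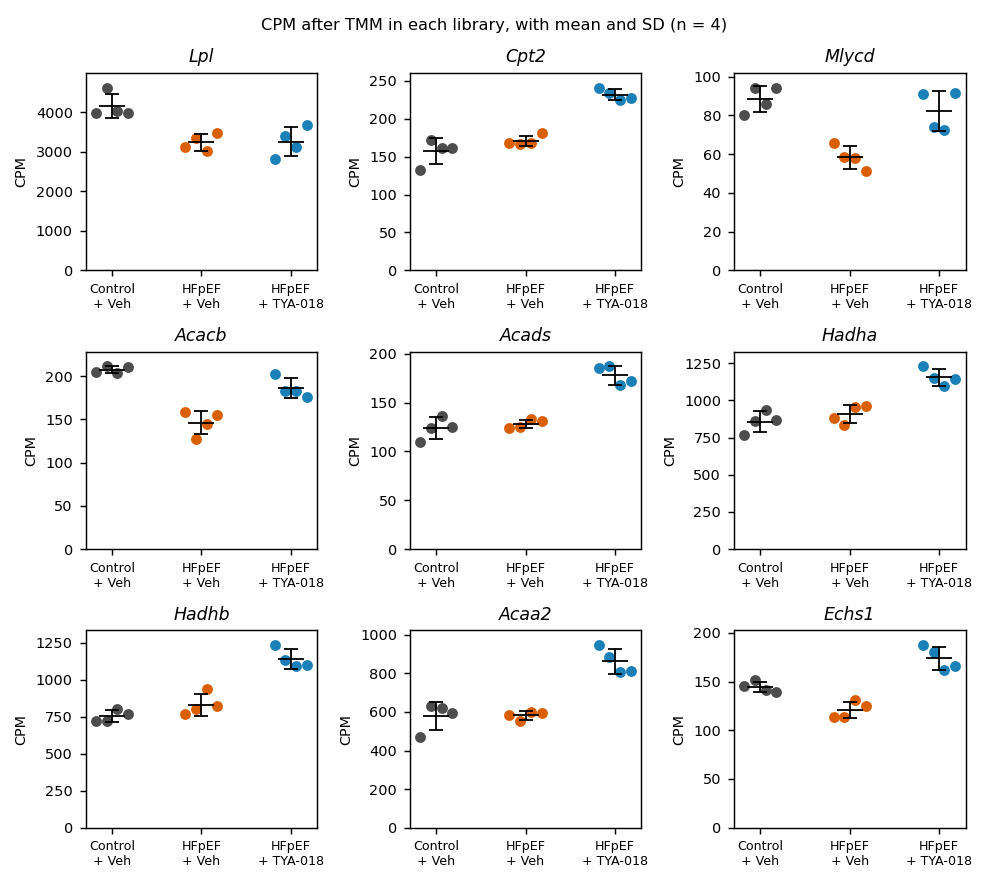
CPM after TMM in each library for 9 of the genes, with the mean and SD of 4 libraries and axes that start at 0. Lpl is lower in both HFpEF groups, Mlycd and Acacb are lowest in HFpEF + Veh, and Cpt2, Acads, Hadha, Hadhb, Acaa2 and Echs1 are highest in all 4 HFpEF + TYA-018 libraries.

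The first dehydrogenation of each cycle is made by acyl-CoA dehydrogenases that divide the work by chain length. Of the 5 genes, 4 rose in HFpEF + TYA-018 against HFpEF + Veh and 4 against Control + Veh, and 1 fell in HFpEF + Veh. Acadvl acts on very long chains and measured 520.2, 679, 669 and 695 CPM in Control + Veh, 609.5, 606, 666 and 658 in HFpEF + Veh and 1049, 912, 853 and 829 in HFpEF + TYA-018. Acads acts on short chains and measured 109.6, 124, 137 and 125 CPM in Control + Veh, 124, 125, 133 and 131 in HFpEF + Veh and 186, 187, 168 and 172 in HFpEF + TYA-018. For both, the HFpEF + TYA-018 libraries lay above all others and the other groups overlapped, with C1 lowest. Acadvl rose by 0.52 (SE 0.10, adjusted p = 0.00555) against HFpEF + Veh and 0.51 (SE 0.10, adjusted p = 0.0160) against Control + Veh, and Acads by 0.47 (SE 0.070, adjusted p = 0.00167) and 0.52 (SE 0.070, adjusted p = 0.00270). In HFpEF + Veh against Control + Veh they were at -0.014 (95% interval -0.23 to 0.20, adjusted p = 0.941) and 0.051 (95% interval -0.10 to 0.20, adjusted p = 0.646). With the length offset neither rise against HFpEF + Veh was called (Acadvl 0.48, edgeR adjusted p = 0.0631, and Acads 0.30, 0.0873). On protein-coding TPM that of Acads was not called (0.29, limma adjusted p = 0.128). Against Control + Veh Acadvl missed the threshold on both (limma adjusted p = 0.0565, edgeR 0.164).

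The long-chain and medium-chain enzymes had smaller fold changes. Acadm, which is named for medium chains, ranged over 470.1 to 557 CPM in Control + Veh, 482 to 565 in HFpEF + Veh and 598 to 645 in HFpEF + TYA-018, so that all HFpEF + TYA-018 libraries lay above the others. It rose by 0.25 (SE 0.074, adjusted p = 0.0335) and 0.30 (SE 0.074, adjusted p = 0.0378) against HFpEF + Veh and Control + Veh. Each call was lost without one of several libraries, namely V1, V2, T1, T2 or T4 in the first (adjusted p 0.0642 to 0.0861) and C1, C2, C4 or any of T1 to T4 in the second (0.0597 to 0.0963). Acadl, named for long chains, ranged over 575 to 782 CPM in Control + Veh, 719 to 811 in HFpEF + Veh and 863 to 919 in HFpEF + TYA-018, also without overlap, with 0.22 (SE 0.088, adjusted p = 0.0968) between the HFpEF groups and 0.33 (SE 0.088, adjusted p = 0.0488) against Control + Veh. That last call remained in only 1 of the 12 fits with a library left out, the one without C1 (adjusted p 0.0542 to 0.116 in the other 11).

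Acad9, which besides its dehydrogenase activity serves in the assembly of respiratory complex I, was a low transcript with a pattern of its own among the dehydrogenases. Acad9 measured 12.9, 13.7, 11.6 and 10.6 CPM in Control + Veh, 8.05, 10.8, 7.28 and 7.67 in HFpEF + Veh and 15.2, 14.4, 13.5 and 15.1 in HFpEF + TYA-018. It fell in HFpEF + Veh, at -0.53 (SE 0.12, adjusted p = 0.0102), where only V2 reached the Control + Veh range, and rose between the HFpEF groups by 0.79 (SE 0.12, adjusted p = 0.00207), the highest change of the 20 called genes. HFpEF + TYA-018 and Control + Veh overlapped (0.25 (SE 0.12, adjusted p = 0.232)). Both calls held in all 12 fits that left out 1 library, and 19.1% of its 31-base words occur in other genes.

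Hydration, the second dehydrogenation and thiolysis are carried out on long chains by the mitochondrial trifunctional protein, whose α and β subunits are encoded by Hadha and Hadhb, and on shorter chains by Echs1, Hadh and Acaa2. All 5 genes rose in HFpEF + TYA-018 against HFpEF + Veh and against Control + Veh, and in each all 4 HFpEF + TYA-018 libraries lay above the other 8. Hadha measured 765, 862, 935 and 870 CPM in Control + Veh, 879, 835, 955 and 965 in HFpEF + Veh and 1228, 1154, 1095 and 1144 in HFpEF + TYA-018. Hadhb measured 724, 723, 804 and 769.7 CPM in Control + Veh, 767, 799, 935 and 819.9 in HFpEF + Veh and 1233, 1130.2, 1095 and 1097 in HFpEF + TYA-018. T1 was the highest library in both, and Control + Veh overlapped with HFpEF + Veh. Hadha rose by 0.35 (SE 0.075, adjusted p = 0.00904) against HFpEF + Veh and 0.43 (SE 0.075, adjusted p = 0.00928) against Control + Veh, and Hadhb by 0.46 (SE 0.074, adjusted p = 0.00263) and 0.59 (SE 0.074, adjusted p = 0.00214), which are rises of 27.1% and 37.2% over HFpEF + Veh. In HFpEF + Veh against Control + Veh neither passed (0.083 (SE 0.075, adjusted p = 0.462) and 0.14 (SE 0.074, adjusted p = 0.210)). Counts of Hadhb could be split, since 23.3% of its 31-base words occur elsewhere, mainly in Gm13910.

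The 2 subunit genes lie head to head on chromosome 5 of GRCm38, Hadha on the minus strand at chr5:30118304-30155162 and Hadhb on the plus strand at chr5:30155248-30184593 (GENCODE M21). The 85 bases between their annotated starts are shown because 1 short stretch lies upstream of both genes. It is taken from the RefSeq promoter table of GRCm38.p6, read on the strand of Hadhb, at chr5:30155163-30155247, and capitals mark the GC box letters GGGCGG, searched on both strands without mismatch.
Hadha-Hadhb: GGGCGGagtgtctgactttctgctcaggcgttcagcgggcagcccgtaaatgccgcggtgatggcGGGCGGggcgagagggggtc
This stretch held 2 matches, both on the strand of Hadhb, and 69.4% of the bases were G or C. The letters are common, occurring in the 85 bases before the start of 47.1% of 10421 tested genes with a promoter in the table and of 16 of the 26 members there (61.5%).

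Echs1, the short-chain enoyl-CoA hydratase, differed from the trifunctional protein in HFpEF + Veh. Echs1 measured 145, 152, 142 and 139.7 CPM in Control + Veh, 113, 114, 131 and 125 in HFpEF + Veh and 187, 180.1, 162 and 166 in HFpEF + TYA-018. Its HFpEF + Veh libraries lay under, and its HFpEF + TYA-018 libraries above, all of the others. It fell in HFpEF + Veh, at -0.26 (SE 0.068, adjusted p = 0.0193), and rose by 0.52 (SE 0.068, adjusted p = 0.00105) between the HFpEF groups and 0.27 (SE 0.068, adjusted p = 0.0418) against Control + Veh. Without C2, V1 or V2 the fall was not called (adjusted p 0.0541 to 0.0545), and the rise against Control + Veh was lost in 9 of 12 fits with a library left out, kept only without V1, V2 or V3 (0.0518 to 0.113 in the 9), whereas the rise against HFpEF + Veh held in all 12.

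Acaa2, the mitochondrial 3-ketoacyl-CoA thiolase that ends the cycle, measured 471, 629.6, 622 and 594 CPM in Control + Veh, 582, 552, 599.7 and 595 in HFpEF + Veh and 946, 883, 805 and 814 in HFpEF + TYA-018. Control + Veh and HFpEF + Veh overlapped (0.0081 (95% interval -0.19 to 0.21, adjusted p = 0.963)), and HFpEF + TYA-018 lay above both, at 0.57 (SE 0.092, adjusted p = 0.00261) against HFpEF + Veh and 0.57 (SE 0.092, adjusted p = 0.00588) against Control + Veh. Hadh, the short-chain 3-hydroxyacyl-CoA dehydrogenase, ranged over 315 to 373 CPM in Control + Veh, 334 to 377 in HFpEF + Veh and 436 to 461 in HFpEF + TYA-018. Its changes were 0.32 (SE 0.066, adjusted p = 0.00677) and 0.33 (SE 0.066, adjusted p = 0.0156). The calls of Hadha, Hadhb, Hadh and Acaa2 in both comparisons held in all 12 fits with a library left out. The rise of Hadhb against HFpEF + Veh was not called on log2(TPM + 1) (adjusted p = 0.148, limma) and shrank to 0.12 (adjusted p = 0.821) on protein-coding TPM and 0.055 (adjusted p = 0.907) with the length offset.

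**Figure D4:**
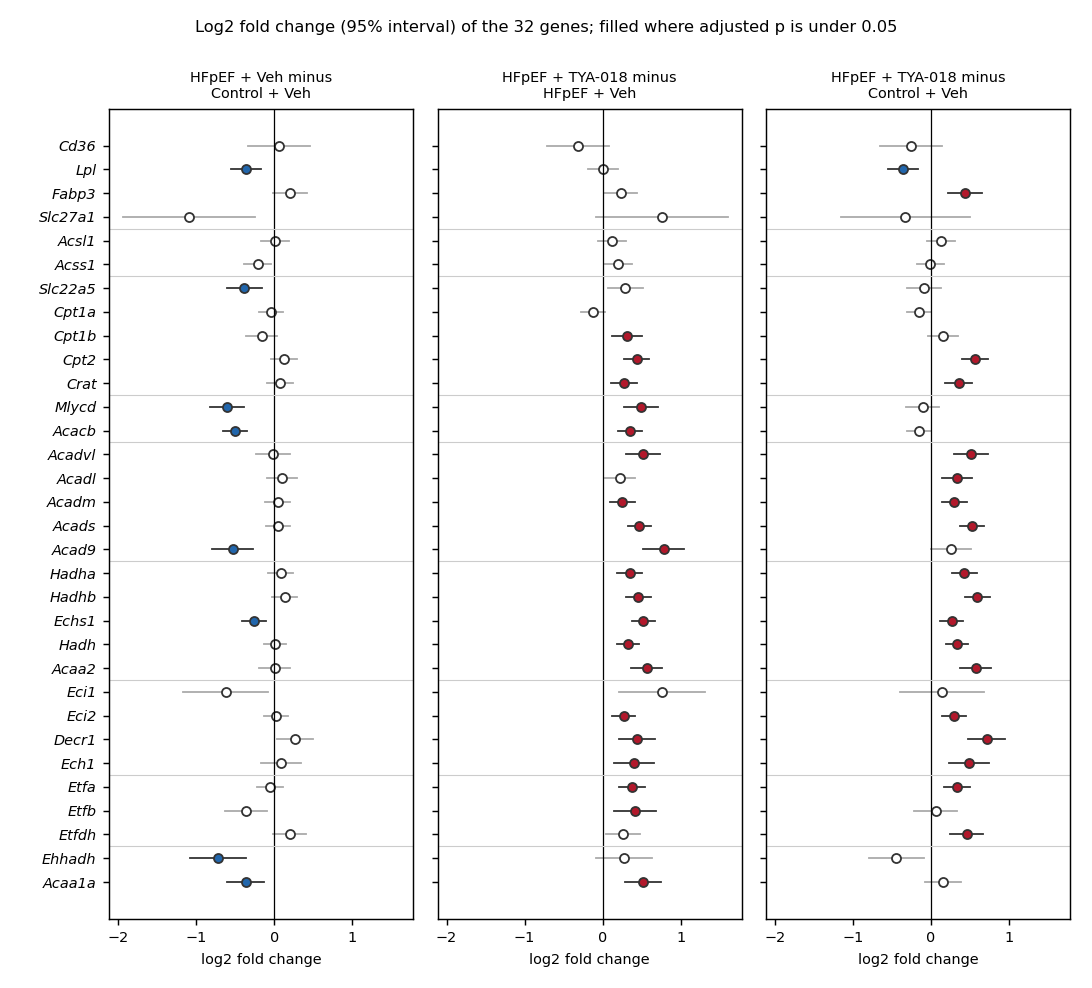
Log2 fold change of each of the 32 genes with its 95% interval in the 3 comparisons, filled red where called higher and blue where called lower. In the middle panel 20 genes are called higher and 0 lower, and in the left panel 8 are called lower and 0 higher.

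Chains with double bonds need isomerases and a reductase before they re-enter the cycle. Of these 4 genes, Decr1, Ech1 and Eci2 rose in HFpEF + TYA-018 against both other groups. Decr1 encodes the mitochondrial 2,4-dienoyl-CoA reductase and measured 213, 312, 296 and 279 CPM in Control + Veh, 315, 339.6, 331 and 339 in HFpEF + Veh and 502, 463, 413 and 423 in HFpEF + TYA-018. In CPM the 3 groups did not overlap and stood in the order Control + Veh, HFpEF + Veh, HFpEF + TYA-018, although the first step, 0.27 (SE 0.11, adjusted p = 0.0903), did not pass. The second, 0.44 (SE 0.11, adjusted p = 0.0148), and the whole, 0.71 (SE 0.11, adjusted p = 0.00448), did, and 63.8% over Control + Veh was the largest rise among the members in that comparison. In TPM Control + Veh (27.2 to 37.6) and HFpEF + Veh (27.4 to 33.1) overlapped. The first step was -0.075 on log2(TPM + 1) (limma adjusted p = 0.853).

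Ech1, a dienoyl-CoA isomerase with the highest mean TPM of the members in Control + Veh, ranged over 883 to 1373 CPM in Control + Veh, 1195 to 1328 in HFpEF + Veh and 1505 to 1861 in HFpEF + TYA-018. It rose by 0.40 (SE 0.12, adjusted p = 0.0332) and 0.49 (SE 0.12, adjusted p = 0.0320), calls that were lost without any 1 of V1 to V4, T1 and T2 (adjusted p 0.0512 to 0.101) and of C3, C4, T1, T2 and T4 (0.0547 to 0.085), respectively. Eci2, an enoyl-CoA isomerase found in mitochondria and peroxisomes, rose by 0.27 (SE 0.070, adjusted p = 0.0205) and 0.29 (SE 0.070, adjusted p = 0.0318), and was lost without V1, V2 or T1 (0.0505 to 0.0622) and without any of C1 to C4, T1, T2 or T4 (0.0507 to 0.0782). Eci1, the mitochondrial isomerase, was the most variable of the group and measured 107, 164, 145 and 138 CPM in Control + Veh, 103, 122, 41.7 and 93.3 in HFpEF + Veh and 145, 179, 144 and 142 in HFpEF + TYA-018. V3 stood far under the other 11 libraries. With it, the log2 fold change was -0.62 (SE 0.25, adjusted p = 0.0969) in HFpEF + Veh and 0.76 (SE 0.25, adjusted p = 0.0520) between the HFpEF groups, and neither was called, although the HFpEF + TYA-018 libraries lay above all of HFpEF + Veh. Without V3 the values were -0.38 (adjusted p = 0.0979) and 0.52 (adjusted p = 0.0365), the second then passing.

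Electrons from the dehydrogenases leave through the electron transfer flavoprotein, with subunits encoded by Etfa and Etfb, to its ubiquinone oxidoreductase, encoded by Etfdh. Etfa ranged over 262 to 307 CPM in Control + Veh, 250 to 305 in HFpEF + Veh and 335 to 379.9 in HFpEF + TYA-018 and rose by 0.38 (SE 0.076, adjusted p = 0.00619) and 0.33 (SE 0.076, adjusted p = 0.0287), and the second call was lost without C2, T1, T2 or T3 (adjusted p 0.0599 to 0.0746). The first, against HFpEF + Veh, was not called on protein-coding TPM (0.19, limma adjusted p = 0.266) or with the length offset (0.20, edgeR adjusted p = 0.137). Etfb measured 442, 724, 563 and 602 CPM in Control + Veh, 441, 477, 446 and 454 in HFpEF + Veh and 692, 624, 539 and 572 in HFpEF + TYA-018. C1 lay with the HFpEF + Veh libraries, and the other 3 Control + Veh libraries lay above them. Etfb was at -0.36 (SE 0.13, adjusted p = 0.0601) in HFpEF + Veh, which did not pass with all libraries but did without C1 (-0.47, adjusted p = 0.00605) and with DESeq2 (adjusted p = 0.0194). It rose by 0.42 (SE 0.13, adjusted p = 0.0369) between the HFpEF groups, a call lost without any 1 of 7 libraries (C4, V1 to V4, T1 and T2, adjusted p 0.05 to 0.113). Of its words, 49.9% are shared, mainly with the overlapping gene Gm45233. Etfdh ranged over 235 to 287 CPM in Control + Veh, 249.7 to 350.1 in HFpEF + Veh and 345 to 386 in HFpEF + TYA-018. Only its comparison with Control + Veh passed, at 0.46 (SE 0.099, adjusted p = 0.0230), and it was lost without C2, C4, T1 or T2 (0.0506 to 0.0596), while V3 reached into the HFpEF + TYA-018 range and the change between the HFpEF groups was 0.26 (SE 0.098, adjusted p = 0.0841).

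Both peroxisomal genes fell in HFpEF + Veh, and 1 of them was called higher with TYA-018. Ehhadh encodes the peroxisomal bifunctional enzyme and measured 9.59, 10.7, 11.1 and 10.00 CPM in Control + Veh, 7.51, 6.66, 5.45 and 5.54 in HFpEF + Veh and 6.95, 5.54, 7.70 and 10.3 in HFpEF + TYA-018. Every HFpEF + Veh library lay under every Control + Veh library, and HFpEF + TYA-018 overlapped both groups, from T2 among the lowest to T4 inside the Control + Veh range. The fall was -0.72 (SE 0.16, adjusted p = 0.0103), or 39.2%, and held under all 21 alternatives. Between the HFpEF groups the change was 0.28 (95% interval -0.082 to 0.63, adjusted p = 0.266). This change passed with the length offset (0.79, edgeR adjusted p = 0.0112) and on protein-coding TPM (0.50, limma adjusted p = 0.0237). It also passed on log2(TPM + 1) and log2(TPM + 0.1) (limma adjusted p = 0.0243 and 0.0185). Acaa1a, the peroxisomal thiolase, measured 56.02, 76.6, 64.4 and 70.6 CPM in Control + Veh, 51.7, 55.1, 50.1 and 50.6 in HFpEF + Veh and 82.4, 82.9, 69.9 and 62.5 in HFpEF + TYA-018. It fell in HFpEF + Veh, at -0.37 (SE 0.11, adjusted p = 0.0289), and rose between the HFpEF groups by 0.52 (SE 0.11, adjusted p = 0.00696), without overlap in either, and overlapped between HFpEF + TYA-018 and Control + Veh. The fall was lost without any 1 of C2, C3, C4, V1, V3 and V4 (adjusted p 0.0503 to 0.0852), the rise under none of the 21 alternatives, and 18.1% of its words occur elsewhere, mainly in Acaa1b.

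Put by pattern, 5 genes fell in HFpEF + Veh and rose in HFpEF + TYA-018 against it, namely Mlycd, Acacb, Acad9, Echs1 and Acaa1a (15.6%), where 4.03% of all genes did. These comparisons share the HFpEF + Veh libraries. A further 13 genes rose in HFpEF + TYA-018 against both other groups without having fallen in HFpEF + Veh, and Echs1 did all 3. Together these 14 are 43.8% of the members, where 1.12% of all genes rose against both groups. Cpt1b and Etfb rose against HFpEF + Veh alone, and Fabp3, Acadl and Etfdh against Control + Veh alone. Cd36, Slc27a1, Acsl1, Acss1, Cpt1a and Eci1 were called in none of the 3 comparisons with edgeR and all libraries.

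**Figure D5:**
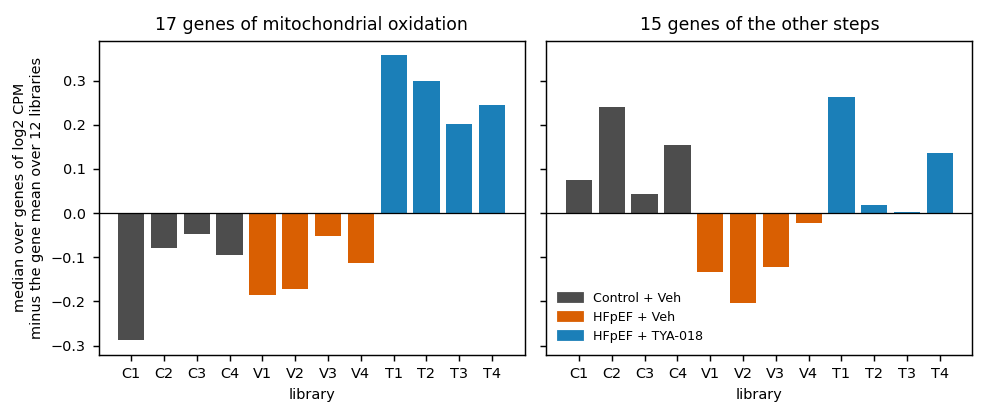
For each library, the median over genes of log2 CPM minus the gene's mean over the 12 libraries, for the 17 genes of the mitochondrial oxidation steps (left) and the 15 of the other steps (right), as bars from 0. On the left all 4 HFpEF + TYA-018 bars are positive (0.20 to 0.36) and the other 8 negative, and on the right the 4 HFpEF + Veh bars are the negative ones.

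The libraries were then compared over the members as a whole. For the 17 genes of the mitochondrial oxidation steps, the median of log2 CPM relative to each gene's mean was 0.36, 0.30, 0.20 and 0.24 in T1 to T4, -0.18, -0.17, -0.051 and -0.11 in V1 to V4, and -0.29, -0.078, -0.047 and -0.096 in C1 to C4. In these genes HFpEF + Veh lay within the range of Control + Veh only because of C1, and HFpEF + TYA-018 lay above both. Beside C2 to C4 (-0.096 to -0.047), V1, V2 and V4 lay lower and V3 lay within. For the 15 other genes the same medians were 0.26, 0.018, 0.002 and 0.14 in T1 to T4, -0.13, -0.20, -0.12 and -0.022 in V1 to V4, and 0.075, 0.24, 0.043 and 0.15 in C1 to C4, so that HFpEF + Veh was lowest and the other groups overlapped.

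One Control + Veh library stood apart. C1 held the lowest Control + Veh value in 21 of the 32 genes, and it also had the lowest summed cardiomyocyte markers of its group (27490 CPM, where the other 3 had up to 38574 CPM). Without C1, 10 genes fell and 0 rose in HFpEF + Veh, and 14 rose and 1 fell in HFpEF + TYA-018 against Control + Veh. Calls over all genes moved as well. Without C1, 1938 of 14503 fell and 2054 rose in HFpEF + Veh, beside 1472 and 1561 of 14333 with all libraries. In HFpEF + TYA-018 against Control + Veh 430 rose and 379 fell without C1, beside 447 and 393. At the other end, T1 held the highest HFpEF + TYA-018 value in 20 genes, and without it 14 genes rose against HFpEF + Veh. Over all genes 652 of 14508 rose in that comparison without T1, beside 1280 of 14333 with all libraries.

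The share of counts from the 13 mitochondrially encoded genes, which are not among the members, was 37.0% to 40.6% in Control + Veh, 43.1% to 47.7% in HFpEF + Veh and 35.4% to 41.2% in HFpEF + TYA-018. Removing these genes before scaling left the counts at 8 lower, 20 higher, and 17 higher with 1 lower in the 3 comparisons. The 8 cardiomyocyte markers had a median log2 fold change of -0.52 in HFpEF + Veh, 0.23 between the HFpEF groups and -0.069 in HFpEF + TYA-018 against Control + Veh, and the 17 genes of the mitochondrial oxidation steps had medians of 0.025, 0.42 and 0.33 in the same order.

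Other genes of fatty acid handling, 53 by list with 51 in the table and 50 tested, moved in both directions. In HFpEF + Veh 3 rose and 8 fell, between the HFpEF groups 11 rose and 6 fell, and against Control + Veh 6 rose and 0 fell. As shares of the 50 these are 6% and 16%, 22% and 12%, and 12% and 0%, beside 10.9% and 10.3%, 8.93% and 10.4%, and 3.12% and 2.74% of all genes. Those called in both of the first comparisons included vascular delivery genes. Gpihbp1, which holds lipoprotein lipase at the capillary wall, was at 0.41 (SE 0.070, adjusted p = 0.00218) and -0.49 (SE 0.070, adjusted p = 0.00140), the opposite of Vldlr, the very low density lipoprotein receptor, at -0.46 (SE 0.078, adjusted p = 0.00234) and 0.26 (SE 0.078, adjusted p = 0.0372). Got2, a mitochondrial transaminase also described as a fatty acid-binding protein of the membrane, was at -0.41 (SE 0.069, adjusted p = 0.00230) and 0.42 (SE 0.069, adjusted p = 0.00259). Acsl5, a long-chain acyl-CoA synthetase, rose and then fell, at 0.37 (SE 0.094, adjusted p = 0.0169) and -0.30 (SE 0.093, adjusted p = 0.0415), as did the monoglyceride lipase Mgll, at 0.46 (SE 0.076, adjusted p = 0.00198) and -0.46 (SE 0.076, adjusted p = 0.00285). Acad12, Pecr and Amacr, the last 2 being peroxisomal, fell and then rose, at -0.32, -0.50 and -0.26 in HFpEF + Veh (adjusted p = 0.0107, 0.00843 and 0.0245) and 0.59, 0.58 and 0.40 between the HFpEF groups (9.15e-04, 0.00528 and 0.00424). Endothelial markers moved with Gpihbp1, and their part in its change was not tested.

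The promoters of the members were searched for the element bound by peroxisome proliferator-activated receptors, a direct repeat of AGGTCA with a spacer of 1 base (AGGTCANAGGTCA, both strands, at most 2 mismatches, in the 250 bases before the start). Of the 26 members with a RefSeq promoter, 3 (11.5%) held a match, and of all 10421 tested genes with one, 333 (3.2%) did. The matches are shown with 20 bases on each side, 5′ to 3′ on the strand of the gene, with the match in capitals, because Echs1 and Etfa rose in HFpEF + TYA-018 against both other groups while Cd36 was not called.
Echs1: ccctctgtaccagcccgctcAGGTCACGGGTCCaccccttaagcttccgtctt
Etfa: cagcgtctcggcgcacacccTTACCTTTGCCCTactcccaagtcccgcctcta
Cd36: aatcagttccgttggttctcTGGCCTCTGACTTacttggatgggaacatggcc
They lie on GRCm38.p6 at chr7:140116472-140116524, chr9:55512288-55512340 and chr5:17835927-17835979, all on the minus strand, and the match reads on the strand of the gene in Echs1 and on the opposite strand in the other 2. Each carries 2 mismatches. The extended single site TCAAGGTCA, known for estrogen-related receptors, was found in 0 of 26 members and in 0.336% of tested genes. A match is a string of letters and no evidence of binding.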

How the data were processed

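Left ventricles of 12 mice were sequenced as polyA RNA, 4 per group, grouped by the titles in the labels. The authors trimmed reads with fastp and quantified them with salmon (version 1.6.0 in the submitters' processing notes) and tximport; the methods name mouse GENCODE on GRCm38.p6, whereas the notes list the human build hg38 although the symbols are mouse, and read layouts differ between both sources. The deposited values are estimated counts per gene (not normalised, fractional where reads fit several transcripts), TPM per gene, and a further deposited table, another kind of value, the effective length in bases. Of the deposited columns of values, 0 were left out. Column sums of TPM lay between 937748 and 963745.

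Estimated counts, 61177646 to 83928922 per library, were rounded and tested with edgeR 4.0.16 (R 4.3.3) as described in the report, after filterByExpr (14333 genes, 99.981% of counts), with group as the sole term (9 residual degrees of freedom, biological coefficient of variation 0.232 over all genes). Alternatives were DESeq2 1.42.0, RLE scaling, removal of mitochondrially encoded genes, no filter, limma 3.58.1 on log2(TPM + 1), log2(TPM + 0.1) and TPM rescaled to protein-coding genes, effective lengths as offset, only the groups compared, and leaving out each library. The study's own analysis used log2(TPM + 1) of protein-coding genes. Coordinates are from GENCODE M21, which holds 94.07% of the gene names. All 32 members are named, and other pathway genes where called in both comparisons with HFpEF + Veh. The members, steps, pathway list and marker lists (cardiomyocyte, endothelial, fibroblast, adipocyte, brown adipocyte, red cell, macrophage, atrial and hepatocyte) were chosen with earlier results of these data known. Nothing says whether animals shared cages or days, so p-values set group differences against the spread of these 12 libraries within their groups only.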

Additional observations from a re-analysis of the deposited data

Results flagged for a closer look

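Each gene was examined in each group for a library standing far from its 3 neighbours (Dixon's ratio of the gap to the whole range above its 95% critical value), and 4 of 96 sets of 4 libraries passed, where chance gives about 1 in 20. Lpl in C2 was 4624 CPM, with the other Control + Veh libraries at 3988 to 4048.5 CPM. Cpt2 in V4 was 180.7 CPM, with the other HFpEF + Veh libraries at 167 to 168 CPM. Acadvl in C1 was 520 CPM, with the other Control + Veh libraries at 669 to 695 CPM. Eci1 in T2 was 179 CPM, with the other HFpEF + TYA-018 libraries at 142 to 145 CPM. The 4 cases fell in 4 different libraries.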

How the results depend on the processing

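No paired analysis was possible because no replicate or animal number is shared between the groups as a pairing. Members called numbered 8 (0 higher, 8 lower) between HFpEF + Veh and Control + Veh (the model comparison), 20 (20 higher, 0 lower) between the HFpEF groups (the compound comparison) and 18 (17 higher, 1 lower) between HFpEF + TYA-018 and Control + Veh (the treated comparison). With 1 library left out they ranged from 5 to 10 (0 higher, 5 to 10 lower), 14 to 23 (0 lower) and 8 to 17 (8 to 16 higher, 0 to 2 lower); the 5 came without C2, and the last comparison had 11 without C2 (0 lower), 0 lower without C3, 9 without C4 (0 lower), 8 without T1 or T2 (0 lower), 0 lower without T3, and 11 higher with 2 lower without T4. In the first comparison DESeq2 called 1 higher, log2(TPM + 1) and log2(TPM + 0.1) with limma called 2, all lower, and protein-coding TPM called 5, with 1 higher and 4 lower. In the second, protein-coding TPM called 11 and the length offset 9, all higher. In the third, limma called 0 on log2(TPM + 1) and on log2(TPM + 0.1) (21 members had an unadjusted p under 0.05 in each) and 6 higher with 0 lower on protein-coding TPM, the length offset 5 higher with 0 lower, only the 2 groups 11 higher with 0 lower, and no filter 0 lower. Over all genes, limma called 9 on log2(TPM + 1), 11 on log2(TPM + 0.1) and 94 on protein-coding TPM there, and the length offset 206. In the same comparison 3219 of 14333 genes had an unadjusted p under 0.05 with edgeR. On log2(TPM + 1) the median of all genes was 0.17 between the HFpEF groups (0.34 on log2(TPM + 0.1), and -0.17 and 0.17 in the other comparisons), and relative to it the members' median was 0.48, with 32 of 32 above it; it was 0.36 with 31 above on log2(TPM + 0.1), 0.26 with 29 above on protein-coding TPM and 0.34 with 30 above with edgeR. Of the 46 calls, 27 held in every fit that left out 1 library. Log2 fold changes took the other sign as follows. On log2(TPM + 1), the model comparison gave Cd36 -0.35, Fabp3 -0.037, Acsl1 -0.28, Cpt2 -0.047, Acadl -0.020, Acadm -0.13, Hadha -0.19, Hadh -0.17, Acaa2 -0.13, Eci2 -0.064, Decr1 -0.075, Ech1 -0.11. On log2(TPM + 1), the compound comparison gave Cd36 0.22, Cpt1a 0.29. On log2(TPM + 1), the treated comparison gave Acss1 0.19, Slc22a5 0.15, Cpt1a 0.14, Mlycd 0.098, Acacb 0.17, Ehhadh 0.0092. On log2(TPM + 0.1), the model comparison gave Cd36 -0.37, Fabp3 -0.037, Acsl1 -0.28, Cpt2 -0.047, Acadl -0.020, Acadm -0.13, Hadha -0.19, Hadh -0.17, Acaa2 -0.13, Eci2 -0.066, Decr1 -0.077, Ech1 -0.11. On log2(TPM + 0.1), the compound comparison gave Cd36 0.23, Cpt1a 0.43. On log2(TPM + 0.1), the treated comparison gave Acss1 0.20, Slc22a5 0.19, Cpt1a 0.19, Mlycd 0.10, Acacb 0.19, Ehhadh 0.0082. On protein-coding TPM, the model comparison gave Cd36 -0.10, Acsl1 -0.022, Slc22a5 0.087, Cpt1a 0.0045, Cpt1b 0.093, Acadvl 0.0059. On protein-coding TPM, the compound comparison gave Lpl -0.093, Slc22a5 -0.077. On protein-coding TPM, the treated comparison gave Acss1 0.013, Slc22a5 0.010, Cpt1a 0.0045. With the length offset, the model comparison gave Cd36 -0.12, Acsl1 -0.069, Slc22a5 0.042, Cpt1b 0.044. With the length offset, the compound comparison gave Lpl -0.072, Slc22a5 -0.059, Cpt1a 0.018. With only the 2 groups compared, the treated comparison gave Acss1 0.0013. Leaving out 1 library in turn gave ranges that crossed 0 in the model comparison for Acaa2 (-0.079 to 0.052), Acads (-0.0037 to 0.10), Acadvl (-0.10 to 0.028), Acsl1 (-0.047 to 0.073), Cd36 (-0.037 to 0.17), Cpt1a (-0.076 to 0.0043), Ech1 (-0.024 to 0.18), Eci2 (-0.017 to 0.055), Hadh (-0.041 to 0.043), and in the compound comparison for Lpl (-0.058 to 0.069), and in the treated comparison for Acss1 (-0.045 to 0.015), Etfb (-0.054 to 0.18). Of these genes, Slc22a5 in the model comparison was called and the others were not called in the comparison named. The causes were not tested.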

Other observations

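Atrial and brown adipocyte markers gave the following. Of 4 atrial markers 3 were tested, and 1, Nppa, was called lower in HFpEF + Veh against Control + Veh (log2 fold change -0.77, edgeR adjusted p = 0.0458). Myl7 and Myl4, both far less abundant, were not called there (-1.75 and -0.090, edgeR adjusted p = 0.157 and 0.712). The brown adipocyte list has 2 genes, of which Cidea alone was tested. Ucp1 had an estimated count of at most 2 in any library and did not pass the filter on low counts. Whether the values of Cidea reflect brown adipocytes was not tested. Cidea averaged 24.0 ± 3.75 CPM under control conditions (SD, n = 4), 28.5 ± 2.12 CPM for the vehicle-treated model and 31.3 ± 1.28 CPM after TYA-018. Its difference between HFpEF + TYA-018 and Control + Veh passed the test (log2 fold change 0.38, edgeR adjusted p = 0.0454), and the other 2 comparisons gave 0.25 (adjusted p = 0.0996) and 0.14 (adjusted p = 0.368).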
